A study of Mus musculus with 5 samples.

Results

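The BCL2 family decides whether the mitochondrial route of cell death is taken. Its members here are 10 genes, read by symbol from a table of 24084 mouse genes, and all 10 were found: the pro-survival genes Bcl2, Bcl2l1, Mcl1 and Bcl2a1b, the effectors Bax and Bak1, and the BH3-only genes Bcl2l11, Bid, Bbc3 and Pmaip1. The RNA came from regulatory T cells (Tregs, CD4 T cells that express Foxp3 and dampen immune responses) of Foxp3-DTR/GFP mice aged 13 days. This line makes a diphtheria toxin receptor and a green fluorescent protein under Foxp3 control. Both groups carried this allele, and the labels name no treatment. One group was sorted from skin-draining lymph nodes (3 libraries) and the other from skin (2 libraries). No source used here says how many animals stand behind a library, so a p-value reflects the spread among libraries only, and part of that spread may be technical.

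Pro-survival proteins of the family hold the effectors BAX and BAK in check, and BH3-only proteins release them by binding the pro-survival proteins or by acting on the effectors directly. Freed effectors open the outer mitochondrial membrane, cytochrome c leaves, and caspases are activated. T cells are a textbook setting for this balance: interleukin-7 and interleukin-2 support BCL2 and MCL1, BIM (the product of Bcl2l11) removes T cells whose signals have waned, and Tregs depend on MCL1 for survival.

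Gene counts per library were 12305644 to 14595018 in the lymph node and 10468795 to 10787378 in the skin, and genes with at least 1 count numbered 12173 to 12540 and 9192 to 9894. Values are CPM (counts per 1000000 gene counts, with library sizes scaled by TMM), given in the order of the library numbers. Skin was compared with lymph node by edgeR's quasi-likelihood test, with p adjusted over all 11437 tested genes and 0.05 as the threshold. Foxp3, which defines Tregs, was at 89.6, 95.0 and 99.8 CPM in lymph node and 77.96 and 118 CPM in skin. Summed Treg markers (6 genes, Foxp3 among them) were at 6282 to 7119 CPM in lymph node and 9782 to 11967 CPM in skin. Of these 6 genes 2 were called higher, where 2.40% of all tested genes were. Summed myeloid markers (16 genes in the table) were at 14.7 to 30.7 CPM in lymph node and 1601 to 2464 CPM in skin libraries, where only Csf3r of the 16 had no count and 5 of 12 tested genes were called higher. Summed T cell markers (10 genes) were at 13208 to 16178 CPM and 8676 to 9617 CPM, and keratinocyte markers (6 genes) at 2.85 to 4.39 CPM and 105 to 115 CPM. Of the latter, Krt14 gave 68.9 and 109.5 CPM in skin, Krt10 had counts in lymph node only and Krt1 had none. The 2 skin libraries also stood apart from each other: of 6963 genes with a mean of 20 CPM or more, 33.4% differed by over 4-fold between them, against 1.69 to 1.74% between pairs of lymph node libraries.

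Bcl2 was lower in the skin libraries than in the lymph node libraries, and it was the only member past the threshold. Of 9 tested members 0 were higher, 1 was lower and 8 did not pass, where 7.70% of all tested genes passed (2.40% higher and 5.30% lower). Bbc3 was not tested because it passed a count of 10 in 1 library only. The median log2 fold change (skin over lymph node) of the 9 tested members was -0.057, and that of all tested genes -0.21. Both skin libraries exceeded every lymph node library for Bcl2l1 and Bak1 and were under every one for Bcl2, while the other 7 members overlapped between tissues. Among all tested genes 16.8% lay wholly above and 33.5% wholly below.

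**Figure D1:**
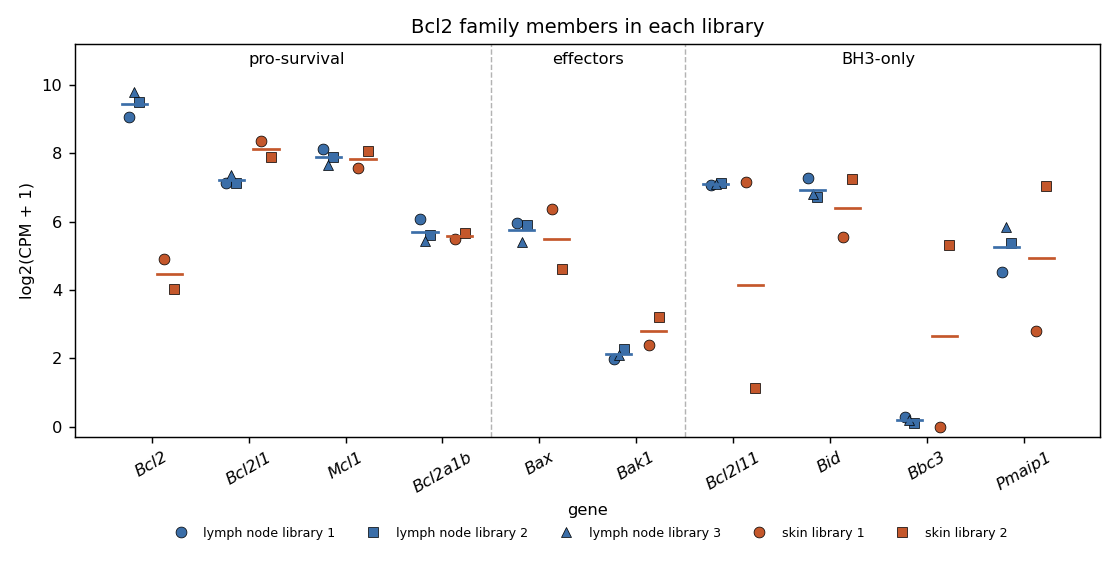
Level of each member in each library as log2(CPM + 1), by role in the family; points are libraries, bars the mean of the plotted values per tissue. Bcl2 is at 534 to 892 CPM in lymph node and 15.2 to 29.3 CPM in skin, while Bcl2l11, Bbc3 and Pmaip1 lie far apart in the 2 skin libraries.

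Bcl2 (chromosome 1, 106538178 to 106714274, minus strand, mm10) encodes the founding pro-survival protein, which sits on mitochondria and the endoplasmic reticulum. Its level was 534, 726 and 892 CPM in the lymph node libraries and 29.3 and 15.2 CPM in the skin libraries. Both skin libraries were thus far under the lowest lymph node library, and the ratio of the means was 32.3 (717 ± 179 CPM, SD, n = 3, against 22.2 ± 9.98 CPM, n = 2). The log2 fold change was -5.01 (SE 0.47, edgeR adjusted p = 0.0229). Leaving out any 1 lymph node library ended the call (adjusted p = 0.113 to 0.115, log2 fold change -5.18 to -4.82), and in those fits edgeR called 0 genes of any kind, though 2361 to 2485 had an unadjusted p under 0.05. With skin library 1 or 2 left out the log2 fold change was -5.57 and -4.62, and Bcl2 was called in both. With all libraries, Bcl2 was also called lower with RLE factors (where 5.33% of genes were), upper-quartile factors (5.65%), T cell gene scaling (6.85%), DESeq2 (17.7%), limma-voom (14.6%), no low-count filter (1.26%), a stricter filter (9.94%) and a term for the library number (0.0874%).

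Other cell types carry Bcl2 as well. The summed B cell markers (6 genes) were at 81.2 to 216 CPM in lymph node and 22.1 to 88.4 CPM in skin. Cd79a, Ms4a1 and Pax5 had no count in skin, though Pax5 had only 3 counts in lymph node. Cd79b overlapped between tissues, at 61.7 to 120 CPM in lymph node and 22.1 and 72.3 CPM in skin. Blnk was at 1.96 to 3.72 CPM in lymph node and at 0 and 16.1 CPM in skin. Summed innate lymphoid, NK and CD8 markers (5 genes) were at 44.5 to 69.5 CPM in lymph node and 22.2 and 0 CPM in skin. Of the 3 tested, 1 was called lower, where 5.30% of all tested genes were. It was Cd8a, with 7.23, 12.2 and 22.9 CPM in lymph node and no count in skin (edgeR adjusted p = 0.0491). Cd8b1 had 29.2 to 46.5 CPM in lymph node and 22.2 and 0 CPM in skin. The part of B cells or of these other cells in the Bcl2 level was not tested. In RNA from pooled cells, fewer cells that express a gene and less RNA per cell cannot be told apart.

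Bcl2l1 encodes BCL-XL, the pro-survival protein of activated lymphocytes and many other tissues, on chromosome 2 (152780668 to 152831728). Its level was 140.05, 140.0 and 164 CPM in lymph node and 327 and 237 CPM in skin. Both skin libraries were above every lymph node library, opposite to Bcl2, but the difference did not pass the threshold (log2 fold change 0.93, SE 0.26, edgeR adjusted p = 0.0802). It passed in DESeq2 (0.97, adjusted p = 0.00241), where 10.8% of genes were called higher. It also passed with libraries scaled to 10 T cell genes (1.65, adjusted p = 0.0362), where 8.89% were, and without skin library 2 (1.14, adjusted p = 0.0132), where 14.4% were. The T cell scaling moved the median of all genes by 0.70 on the log2 scale and turned the split of calls from 275 higher and 606 lower to 1017 higher and 783 lower. Myeloid cells also express Bcl2l1, and the part of the higher myeloid markers (1601 to 2464 CPM in skin) in its level was not tested.

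Mcl1, whose short-lived protein restrains BAK and is needed by Tregs, was close to equal in the 2 tissues. It had 277, 236 and 202 CPM in lymph node and 188 and 270 CPM in skin. Each skin library lay near one end of the lymph node range, and the log2 fold change was -0.057 (SE 0.28, edgeR adjusted p = 0.926). With T cell gene scaling the value was 0.64 (adjusted p = 0.162), close to the 0.70 by which that scaling moved the median gene.

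Bcl2a1b encodes an A1 protein, a pro-survival member switched on by NF-kB in activated lymphocytes and abundant in myeloid cells. It had 66.9, 48.0 and 42.1 CPM in lymph node and 44.4 and 50.2 CPM in skin, which overlapped (log2 fold change -0.15, SE 0.52, edgeR adjusted p = 0.897). Both skin values lay inside the lymph node range. The summed myeloid markers of the skin libraries were at 1601 to 2464 CPM, and their part in the Bcl2a1b level was not tested. The Bcl2a1b counts are a lower limit, since mouse chromosome 9 holds near-identical copies of the gene. The coding sequences of Bcl2a1b, Bcl2a1d and Bcl2a1a are 519 bases each, and Bcl2a1d differs from Bcl2a1b at 6 and Bcl2a1a at 11 positions (98.8% and 97.9% identity, GENCODE M21 transcripts). The first 60 coding bases, the stretch of that length with most differences, are shown because only reads over such positions can be assigned to 1 copy. They lie, in GRCm38 (mm10), at chr9:89199360-89199419 (plus strand), chr9:88731660-88731719 (minus strand) and chr9:88957051-88957110 (plus strand), and capitals mark the 6 positions at which the 3 genes are not all alike.
Bcl2a1b: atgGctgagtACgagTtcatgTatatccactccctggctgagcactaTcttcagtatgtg
Bcl2a1d: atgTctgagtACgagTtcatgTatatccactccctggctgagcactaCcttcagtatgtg
Bcl2a1a: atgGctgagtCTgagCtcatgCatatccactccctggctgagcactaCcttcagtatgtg
By contrast, coding bases 95 to 311 (217 bases, within 1 exon, chr9:89199454-89199670 in Bcl2a1b) are the same in all 3 genes, so a read lying wholly inside them has 3 equal matches.
shared by all: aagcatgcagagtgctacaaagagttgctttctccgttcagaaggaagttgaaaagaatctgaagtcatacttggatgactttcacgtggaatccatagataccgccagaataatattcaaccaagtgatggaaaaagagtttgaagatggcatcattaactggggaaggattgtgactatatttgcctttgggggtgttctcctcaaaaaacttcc

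Over the whole Bcl2a1b transcript, 57.6% of windows of 50 bases and 31.1% of windows of 100 bases also occur in transcripts of genes elsewhere in the genome; the read length is not given in the sources used here. Of all counts in the table, 64.5 to 72.0% were reads without a unique alignment, which the counting gave to no gene. The other copies had low counts, which are lower limits as well. In genes elsewhere occur 79.5% of the 50-base windows of Bcl2a1d and 69.0% of those of Bcl2a1a. Bcl2a1d had 9.62, 3.84 and 6.59 CPM in lymph node and 0.562 and 1.997 CPM in skin (edgeR adjusted p = 0.241). Bcl2a1a had 1 count and Bcl2a1c 8 counts over the 5 libraries.

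Bax and Bak1 encode the proteins that form the pore. Bax was at 61.0, 58.3 and 41.3 CPM in lymph node and at 81.9 and 23.3 CPM in skin, so that the 2 skin libraries bracketed the lymph node (log2 fold change -0.026, SE 0.69, edgeR adjusted p = 0.986). Bak1 was the scarcer effector, with 2.95, 3.84 and 3.26 CPM in lymph node and 4.21 and 8.29 CPM in skin. Its skin values were both above those of lymph node, but a difference of 0.90 on the log2 scale (SE 0.89) on 42 to 83 counts per library did not pass (adjusted p = 0.578). Bak1 overlaps Ggnbp1 in the annotation, a gene with 25 to 30 counts per lymph node library and none in skin, and reads in shared exons cannot be told apart where strand was not used.

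The BH3-only genes Bcl2l11, Pmaip1 and Bid differed more between the 2 skin libraries than between the tissue means. So did Bax (3.52-fold between skin libraries and 1.02-fold between means), Bak1, Mcl1 and Bcl2a1b. Bcl2l11 (BIM; chromosome 2, 128126038 to 128162547) was even in lymph node, at 134, 139 and 135 CPM, and skin library 1 was near them at 143 CPM, 119 times the 1.20 CPM (12 counts) of skin library 2. With both skin libraries the log2 fold change was -0.92 (SE 1.52, edgeR adjusted p = 0.758). Without skin library 1 it was -6.82 (adjusted p = 0.000122), and without skin library 2 it was 0.065 (adjusted p = 0.864).

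Pmaip1 (NOXA, a p53 target whose protein binds MCL1) went the other way. It had 22.1, 40.8 and 56.1 CPM in lymph node. The first skin library held 5.99 CPM and the second 132 CPM, 22.0-fold more. The skin libraries thus lay on either side of all lymph node libraries (log2 fold change 0.79, SE 1.21, edgeR adjusted p = 0.733). Without skin library 1 the log2 fold change was 1.73 and without skin library 2 it was -2.73 (adjusted p = 0.0182 and 0.0181), calls of opposite direction.

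Bbc3 (PUMA, another p53 target, which binds all pro-survival proteins) had 3, 1 and 2 counts in the lymph node libraries, none in skin library 1 and 389 counts (38.8 CPM) in skin library 2. Against the 3 counts that a count of 0 allows, skin library 2 was at least 138-fold higher than skin library 1. No test across both skin libraries was made with the filter on low counts, and without it the difference did not pass (log2 fold change 6.99, adjusted p = 0.175).

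Bid, which caspase 8 cleaves to link death receptors to mitochondria, had 153, 104 and 112 CPM in lymph node and 45.6 and 150 CPM in skin. Skin library 2 fell within the lymph node range and skin library 1 below it (log2 fold change -0.33, SE 0.57, edgeR adjusted p = 0.772). Without skin library 2 the value was -1.44 and passed (adjusted p = 0.0206). Bid overlaps Bcl2l13 on the other strand, with 16.4% of its 50-base windows shared. Bcl2l13 was at 6.83 CPM in the first skin library and 212 CPM in the second. The part of the overlap in the Bid counts was not tested.

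**Figure D2:**
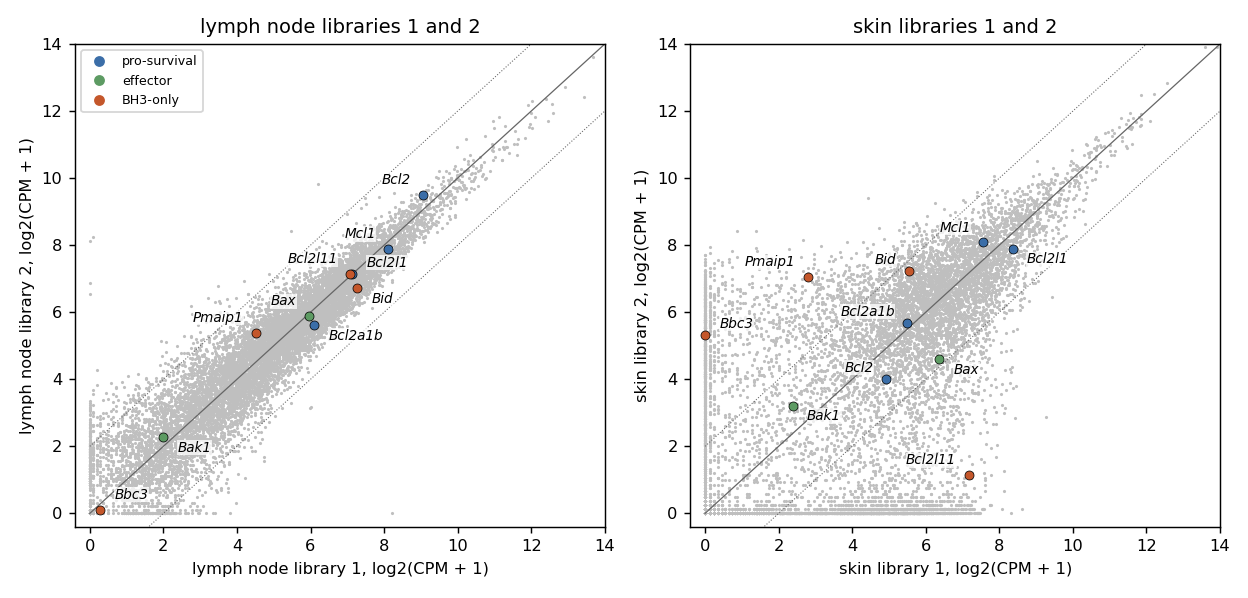
Library 2 against library 1 of each tissue, as log2(CPM + 1), for the 11437 tested genes (grey) and the 10 members (colored by role); the solid line is equality and the dotted lines are 2 log2 units (4-fold) away. Bcl2l11, Pmaip1 and Bbc3 lie outside the dotted lines in skin, and none of the members does in lymph node.

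This spread was common among genes of these libraries. Of the 8 members with a mean of 20 CPM or more, Bcl2l11 and Pmaip1 differed by over 4-fold between the skin libraries, 2 of 8 against 33.4% of all genes at that level, and 0 of 8 did so between any pair of lymph node libraries. Of 6660 genes with a lymph node mean of 20 CPM or more, levels under 1 CPM were found for 8.80% in the first skin library, for 16.1% in the second and for 4.23% in both. Summed myeloid markers were higher in skin library 2 (2464 CPM) than in skin library 1 (1601 CPM). Mrc1 (137.5 against 362 CPM), Itgam (0 against 109 CPM) and Cd14 (0 against 21.9 CPM) were lower in skin library 2. The part of myeloid cells in the BH3-only values was not tested.

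With 1 skin library left out, the members called changed. Without skin library 1, Bbc3 and Pmaip1 were higher and Bcl2 and Bcl2l11 lower, in a fit that called 48.7% of all genes (16.9% higher and 31.8% lower). Without skin library 2, Bcl2l1 was higher and Bcl2, Bid and Pmaip1 lower, in a fit that called 39.2% (14.4% higher and 24.8% lower). The remaining skin library is then assumed to vary like the lymph node libraries, and Bcl2 was the one member with the same call in both.

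**Figure D3:**
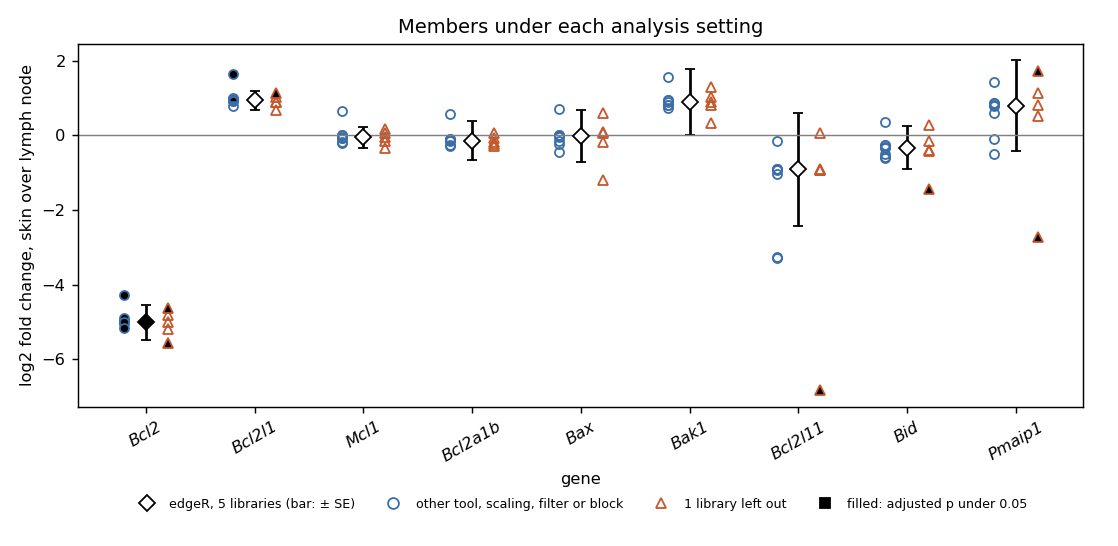
Log2 fold change (skin over lymph node) of the 9 tested members by edgeR with all 5 libraries (diamond, bar ± SE), under 8 other tools, scalings, filters or the block (circles) and with 1 library left out (triangles); filled symbols passed an adjusted p of 0.05. Bcl2 lies between -5.57 and -4.29 throughout, while Bcl2l11 and Pmaip1 fall on either side of 0 according to the skin library left out.

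Levels can be compared between genes once divided by length. Counts were divided by merged exon length and scaled to a sum of 1000000 in every library, as TPM values are. On this scale Bcl2 had the highest measured mean in lymph node (278 ± 79.6, SD, n = 3), followed by Mcl1 (245 ± 31.5), Bcl2a1b (224 ± 42.4), Bid (121 ± 16.4), Bax (119.7 ± 25.0), Bcl2l1 (114 ± 13.6), Bcl2l11 (59.9 ± 6.05), Pmaip1 (51.8 ± 23.4), Bak1 (4.95 ± 1.06) and Bbc3 (0.229 ± 0.0907). Neighbors in this order overlapped over libraries except at the steps from Bcl2a1b to Bid, from Bcl2l1 to Bcl2l11, from Pmaip1 to Bak1 and from Bak1 to Bbc3. Because the Bcl2a1b counts are a lower limit, its place in this order and in that of skin is a lowest place, and it may stand above Bcl2 or Mcl1.

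In skin the measured order per length began with Mcl1 (200 and 265), Bcl2l1 (259 and 173) and Bcl2a1b (197 and 206), and Bcl2 came last (11.6 and 5.55). The leading 3 overlapped, Bax (189 and 49.4) lay below Bcl2a1b, and from Bax on all neighbors overlapped. With the length of the longest transcript in place of merged exons, Bcl2l1 came first in skin, above Mcl1 in both libraries, and Bak1 came last.

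Within the pro-survival members, the share of Bcl2 was lower and that of Bcl2l1 higher in both skin libraries than in any lymph node library, while the shares of Mcl1 and Bcl2a1b overlapped. Summed per length, the 4 genes reached 817, 906 and 859 in lymph node and 668 and 649 in skin. Bcl2 gave 23.2, 33.4 and 39.9% of that sum in lymph node and 1.74 and 0.855% in skin. Bcl2l1 gave 12.1 to 14.7% in lymph node and 38.8 and 26.7% in skin. Mcl1 gave 24.3 to 32.2% in lymph node and 29.95 and 40.8% in skin, and Bcl2a1b, an undercounted gene, 21.1 to 32.5% and 29.5 and 31.7%. These shares are a description and were not tested, and the undercount of Bcl2a1b makes those of the other 3 genes too high. The shares of a library have a fixed sum, so a lower share of Bcl2 alone makes the others larger. The shares are thus not separate findings.

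**Figure D4:**
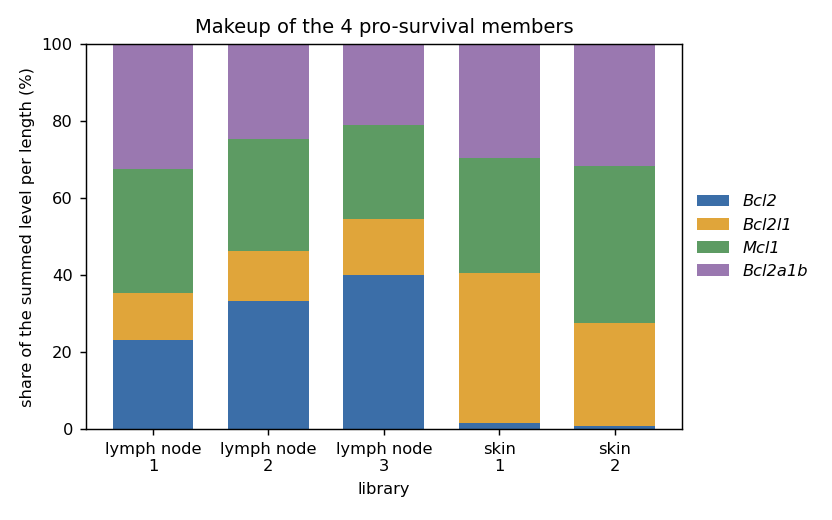
Share of each pro-survival gene in their summed level per length, in percent, for each library. The Bcl2 segment is 23.2 to 39.9% in the lymph node libraries and 0.855 to 1.74% in the skin libraries, where Bcl2l1 takes 26.7 to 38.8%.

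Ratios between members were set out per length, without a test. The Bax to Bcl2 ratio per length was 0.664, 0.467 and 0.269 in lymph node and 16.2 and 8.91 in skin. Mcl1 to Bcl2 was 1.39, 0.871 and 0.608 against 17.2 and 47.7. Bcl2l11 to Bcl2 was 0.286, 0.219 and 0.173 in lymph node but 5.57 in skin library 1 and 0.0900 in skin library 2, on either side. Set against Mcl1, Bcl2l11 stood at 0.206, 0.251 and 0.285 in lymph node and 0.324 and 0.00189 in skin, and Pmaip1 at 0.0997, 0.216 and 0.346 against 0.0398 and 0.610. Bak1 to Mcl1 was 0.0151 to 0.0231 in lymph node and 0.0318 and 0.0436 in skin. The ratios to Bcl2 also carry its lower level in skin, so they are not separate findings. All are ratios of RNA and say nothing of the proteins.

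Outside the 10 members, 16 further family genes were listed, 14 had a count and 9 were tested. By edgeR 0 were higher and 0 lower, where 2.40% and 5.30% of all tested genes were, and all 9 did not pass. Nearest to the threshold were Bnip3 and Bcl2l14. Bnip3, a hypoxia-induced gene of mitochondrial removal, had 6.18, 7.37 and 4.89 CPM in lymph node and 50.1 and 59.6 CPM in skin (log2 fold change 3.16, SE 0.68, adjusted p = 0.0523). It is another gene with copies, as 36.95% of its 50-base windows occur in transcripts of genes elsewhere. Its relative Bnip3l had 116 to 141 CPM and 208 and 213 CPM (log2 fold change 0.75, adjusted p = 0.121). Bcl2l14 had 3.09, 14.7 and 14.1 CPM in lymph node and was without a count in skin, at least 73.5-fold lower against a floor of 3 counts over both skin libraries (adjusted p = 0.0545). Bnip3 was called higher, and Bcl2l14 lower, in DESeq2 (adjusted p = 1.2e-10 and 0.000116), limma-voom (0.0347 and 0.0103), T cell gene scaling (0.0370 and 0.0496) and edgeR with the stricter filter (0.0396 and 0.0398). Of all genes, limma-voom called 4.95% and the stricter filter 4.27% higher. Bnip3l was called higher in DESeq2 (adjusted p = 0.00569) and with T cell gene scaling (0.0370).

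Among the remaining pro-apoptotic genes, Bad, a BH3-only gene governed by growth factor signals, had 51.5, 43.8 and 37.8 CPM in lymph node and 54.2 and 125 CPM in skin (adjusted p = 0.284). Bcl2l13 was at 45.9 to 53.4 CPM in lymph node (adjusted p = 0.598). Bcl2l12 had 15.4 to 25.8 CPM in lymph node and 9.83 and 0.399 CPM in skin, and Bcl2l15 0.883 to 15.3 CPM against 0 and 6.09 CPM (adjusted p = 0.416 and 0.754). Bmf, a BH3-only gene tied to the cytoskeleton, was at 0.235 to 3.33 CPM and 0.468 and 0 CPM (adjusted p = 0.417). Bok (77 counts, all in lymph node library 3), Bik (7 counts in lymph node), Bcl2l2 (4 counts in each tissue) and Bcl2a1a were too low to test, as was Bcl2a1c, and Bcl2l10 and Hrk had no count.

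Downstream and upstream genes were read from the same fit. There 2.40% of all tested genes were higher and 5.30% lower, with a median log2 fold change of -0.21. No list was tested against these shares. Of 15 tested genes of the mitochondrial pathway below the family (caspases, their activators and inhibitors), 0 were higher, 1 was lower and 14 did not pass, with a median log2 fold change of 0.55. The 1 was Htra2, which encodes a protease that counters caspase inhibitors: it had 10.3, 14.8 and 19.6 CPM in lymph node and none in the skin libraries, at least 103-fold lower (edgeR adjusted p = 0.0468). Of 10 death receptor genes, 1 was higher, 0 lower and 9 not past (median 0.78). Ripk3, the kinase of necroptosis, had 204, 219 and 199.5 CPM in lymph node and rose to 519 and 465 CPM in skin (log2 fold change 1.25, SE 0.20, adjusted p = 0.0434). Macrophages express Ripk3 too, and the part of the myeloid markers (1601 to 2464 CPM in skin) was not tested.

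Of 10 tested p53 pathway genes, 1 was higher, 1 lower and 8 not past the threshold (median log2 fold change 0.17). Cdkn1a, the cell cycle inhibitor p21, rose from 0.913, 1.02 and 1.09 CPM to 43.8 and 122 CPM (log2 fold change 6.35, SE 0.82, edgeR adjusted p = 0.0381). Trp53 itself fell from 598, 482 and 582 CPM to 231 and 289 CPM (adjusted p = 0.04998, log2 fold change -1.09, SE 0.23). The calls of Htra2, Ripk3, Cdkn1a and Trp53 were each lost on leaving out any 1 lymph node library, in fits that called 0 genes. That of Trp53 was also lost with T cell gene scaling (log2 fold change -0.38, adjusted p = 0.218), RLE factors (0.0534) and no low-count filter (0.0675), and the last also ended the calls of Htra2 (0.0598) and Ripk3 (0.0516). A term for the library number ended all 4 of these calls (adjusted p = 0.673 to 0.712). That fit called 0.0874% of all tested genes lower. Between the skin libraries, 4 of the 10 genes had more CPM in the second, Cdkn1a among them, 5 had less and 1 had no count in either.

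Signals that feed the family came next. Of 11 tested genes of the interleukin-2 and interleukin-7 axis, 0 were higher or lower by edgeR and all 11 did not pass (median log2 fold change -0.15). Of all tested genes 2.40% were higher and 5.30% lower. Of the 11 genes, 4 had a positive log2 fold change, among them Il7r, which encodes an interleukin-7 receptor chain. Il7r had 168, 294 and 260 CPM in lymph node and 536 and 333 CPM in skin (edgeR adjusted p = 0.179). Il2rg, the shared receptor chain, had 3977, 3157 and 3704 CPM in lymph node and 2938 and 2900.3 CPM in skin (adjusted p = 0.282), and Il2ra, the high-affinity chain, 1212 to 1460 CPM and 1105 and 1302 CPM (adjusted p = 0.744). Among 4 tested genes of MCL1 protein turnover 0 were called by edgeR (median log2 fold change 0.94). Huwe1, a ubiquitin ligase for MCL1, was at 246 to 310 CPM and at 284 and 497 CPM (adjusted p = 0.378). Usp9x, a deubiquitinase that spares it, was at 62.9 to 99.8 CPM and at 172 and 247 CPM (adjusted p = 0.0633). It was called higher in DESeq2 (adjusted p = 0.00233), limma-voom (0.0366) and T cell gene scaling (0.0374). These settings called 10.8%, 4.95% and 8.89% of all genes higher. Without skin library 1 or 2 the log2 fold change of Usp9x was 1.63 and 1.11.

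**Figure D5:**
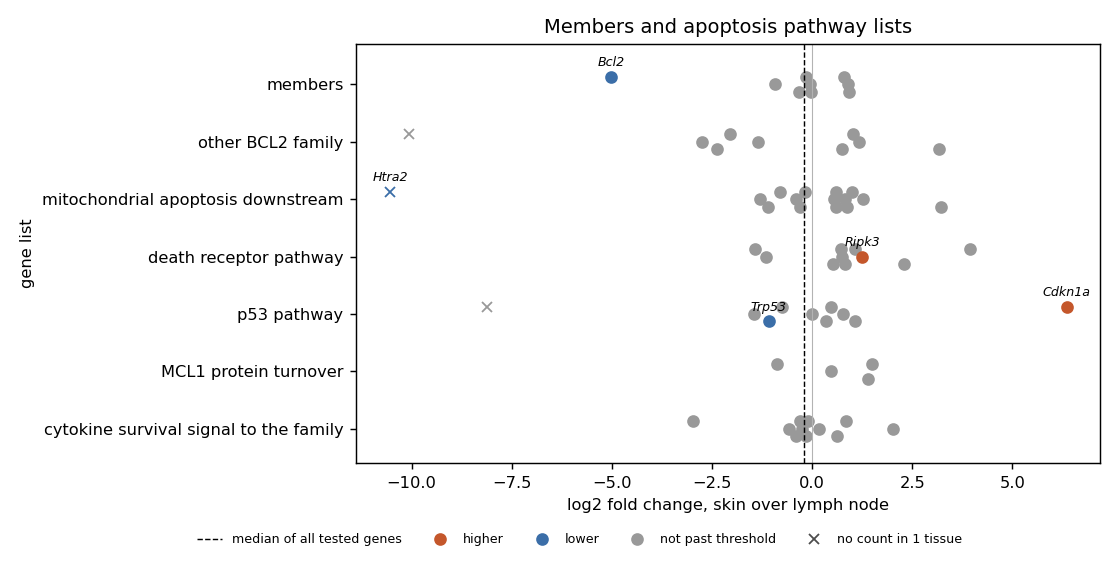
Log2 fold change (skin over lymph node) of each tested gene in the members and in 6 related lists; colors give the edgeR call, crosses genes without a count in 1 tissue (whose fitted value depends on the prior count), and the dashed line the median of all tested genes, -0.21. Bcl2, Htra2 and Trp53 are lower and Ripk3 and Cdkn1a higher; all others are grey.

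Genes whose pattern over the 5 libraries was most like that of Bcl2 were sought among 5741 genes by the root mean square difference of centered log2 CPM. Among the nearest were Ift80 (0.24), Pml (0.35), Pank4 (0.50) and Heatr5a (0.55). Ift80, a gene of transport in cilia, had 293, 433 and 360 CPM in lymph node and 13.0 and 5.89 CPM in skin. The nearest to Mcl1 were Arf4 (0.017), Atxn7l1 (0.051), Serbp1 (0.064), Zfp414 (0.082) and Srsf5 (0.082). Arf4, a gene of vesicle transport, had 352, 291 and 257 CPM in lymph node and 240 and 342 CPM in skin.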

How the data were processed

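The authors deposited whole-number counts per gene symbol without normalization, 1 column per library, and the header was read as shifted by 1 cell. Per the submitters' processing notes, CASAVA 1.8.2, TopHat2 2.0.12, Bowtie2 2.1.0.0, SAMtools 0.1.19.0, HTSeq 0.6.1 and mm10 were used; neither the options, the read length nor the use of strand is stated there. Per the labels' protocols, cDNA came from a SMARTer low-input kit. HTSeq summary rows were left out; counts outside genes made up 8.35 to 14.0% of the table and ambiguous ones 0.400 to 0.433%.

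Counts were fitted with edgeR 4.0.16 in R 4.3.3 (filterByExpr, minimum count 10; TMM; quasi-likelihood test; Benjamini-Hochberg), with no replicate term. The SE is the log2 fold change over the square root of F. The fit was tested on simulated counts. Counts were drawn at the trended dispersion (the spread that edgeR fits as a function of level), alike in both tissues. The real skin libraries spread more than those of lymph node, which that test did not copy. At this dispersion the fit missed most of the known differences, and at a dispersion of 0.02 it found most. A gene that did not pass is thus not shown to be unchanged. The common dispersion of the real counts was 0.843. Alternatives used DESeq2 1.42.0, limma-voom 3.58.1, other scalings and filters, a block and leaving out each library. Lengths and positions come from GENCODE M21 (GRCm38, which is mm10); 22842 of 24084 symbols matched. Intervals and floors cover counting error only.

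The members and lists were chosen with earlier results of these data known. Named are all members, other family genes with a count, of each other list up to 4 called genes or else the 2 most abundant, and the 5 genes most like Bcl2 and Mcl1 among those averaging a log2 CPM of at least 5. A gene that this rule names is not reported here. Foxp3, Ggnbp1, Il7r and the marker genes fall outside this rule, and they were picked with their values in view.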

Additional observations from a re-analysis of the deposited data

How the results depend on the processing

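Across 13 alternatives, 14 of 36 named genes changed sign at least once. Genes called higher and lower (275 and 606 by edgeR) numbered 1235 and 2027 in DESeq2, 566 and 1665 in limma-voom, 136 and 179 without a low-count filter and 428 and 997 with a stricter one (50 counts in 2 libraries); T cell gene scaling gave 1017 higher. With 1 library left out they ranged from 0 to 2110 and from 0 to 3955. Members called higher (0) became 1 in DESeq2 and 1 with T cell gene scaling, and 0 to 2 with a library left out; members called lower (1) became 0 to 3.

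With the replicate block, calls fell to 11 higher and 10 lower, and Bcl2 stayed called (log2 fold change -4.88, adjusted p = 0.0479). The labels do not say that numbers pair samples, and same-numbered libraries did not deviate together (r = -0.050 and -0.040 over 4616 genes).

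Signs turned with T cell gene scaling, which moved the median gene by 0.70, for Bax (0.71), Bcl2a1b (0.57), Bid (0.35), Mcl1 (0.64), Il2ra (0.57), Il2rg (0.41), Arf4 (0.65), Serbp1 (0.62), Srsf5 (0.64) and Zfp414 (0.63). Upper-quartile factors moved the median gene by -0.14 and turned Atxn7l1 (-0.12). Arf4 was 0.0048 with RLE factors and 0.0047 in DESeq2. Bcl2l13 (-0.46) and Pmaip1 (-0.50) turned in limma-voom; with the replicate block Bcl2l13 (-0.39), Pmaip1 (-0.089) and Atxn7l1 (-0.088) did. With a library left out the log2 fold change ranged from -1.21 to 0.61 for Bax, -0.28 to 0.071 for Bcl2a1b, -6.82 to 0.065 for Bcl2l11, -2.85 to 2.11 for Bcl2l13, -1.44 to 0.28 for Bid, -0.35 to 0.17 for Mcl1, -2.73 to 1.73 for Pmaip1, -0.33 to 0.18 for Arf4, -0.26 to 0.27 for Atxn7l1, -0.32 to 0.11 for Serbp1, -0.25 to 0.10 for Srsf5 and -0.24 to 0.068 for Zfp414. The cause was not tested. With the longest transcript as length, 7 of 10 members kept their rank in lymph node and 6 in skin.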
